A study of Mus musculus with 7 samples.

Results

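The Sox transcription factors examined here are 10 genes, Sox1, Sox2, Sox3, Sox4, Sox5, Sox6, Sox8, Sox9, Sox10 and Sox11, taken by symbol from the 32531 gene symbols of the count tables. All 10 were found in every table, and 9 passed the filter on low counts (Sox3 did not). RNA was taken from ventricle-lining brain tissue of adult animals of a mouse line called Dcdc2a-TRAP ES2575, in which EGFP is joined to the ribosomal protein Rpl10a. The IP group, 3 libraries numbered 1, 3 and 4, is ribosome-bound RNA recovered with antibodies to EGFP. The Input group, 4 libraries numbered 1 to 4, is total RNA of tissue from the same transgenic line. No group without the tag was analysed, all libraries carry the transgene, and the labels name no further treatment. The tag reports the cells in which Dcdc2a directs it, the labels do not say whether animals were pooled, and an IP numbered 2 was not analysed here. Nothing in the labels says that libraries of a group came from separate animals, so p-values measure the spread between these libraries, which may be technical.

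Sox proteins bind DNA through an HMG box, a domain they share with the male sex-determining factor Sry, and are sorted into groups by the likeness of that box. Sox1, Sox2 and Sox3 (SoxB1) maintain neural stem and progenitor cells, and Sox2 is also kept on in adult ependymal cells and astrocytes. Sox9 (SoxE) is a glial factor found in astrocytes and ependymal cells, its relative Sox10 is needed in the oligodendrocyte lineage, Sox4 and Sox11 (SoxC) act in young neurons, and Sox5 and Sox6 (SoxD) regulate progenitors and oligodendrocyte precursors. Ependymal cells are the ciliated cells that line the ventricles.

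A stretch of the box is shown because it is alike across the members and its reads could be confused between them. It is the 30 coding bases that Sox1 and Sox11 share exactly, with the best ungapped match in the longest coding sequence of each other member (GENCODE M21, 5′ to 3′). Capitals mark bases that differ from Sox1.
Sox1: cggcccatgaacgccttcatggtgtggtcc
Sox2: AggcccatgaacgccttcatggtAtggtcc
Sox3: cgAcccatgaacgcGttcatggtgtggtcc
Sox4: cggcccatgaacgccttTatggtgtggtcG
Sox11: cggcccatgaacgccttcatggtgtggtcc
Sox5: cgTccAatgaaTgccttcatggtgtggGcG
Sox6: cgAccAatgaaTgcGttcatggtTtggGcA
Sox8: cggcccatgaaTgccttcatggtgtggGcA
Sox9: cgAcccatgaacgccttcatggtgtggGcG
Sox10: AggcccatgaacgccttcatggtgtggGcA
Sox11 had 0 differences from Sox1 in these 30 bases, Sox2, Sox3 and Sox4 had 2 each, the SoxE genes Sox8, Sox9 and Sox10 had 3 each, Sox5 had 5 and Sox6 had 7. Over the whole coding sequences the longest identical runs were inside groups, and the 3 longest are given. Only a read lying wholly inside such a run would match both coding sequences exactly. How many mismatches the alignment allowed is not stated in the labels.
Sox4 and Sox11: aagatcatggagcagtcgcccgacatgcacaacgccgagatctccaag
Sox1 and Sox3: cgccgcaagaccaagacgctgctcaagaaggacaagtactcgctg
Sox9 and Sox10: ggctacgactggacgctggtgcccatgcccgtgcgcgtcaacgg
These runs are 48, 45 and 44 bases long. The run of Sox9 and Sox10 starts at base 247 of the Sox9 and base 244 of the Sox10 coding sequence, before the stretch shown above (which starts at 319 and 316), so alike sequence was not limited to that stretch. Per the closing lines of the tables, reads with several alignments were kept out of the gene counts, and the read length is not given in the labels. Such reads made up 19.8%, 29.6% and 39.3% of all lines in IP 1, IP 3 and IP 4, against 20.9% to 21.2% in Input. Their part in the Sox levels was not tested.

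The depth was 42422439 to 52175180 gene counts in IP and 37203427 to 44754345 in Input, so 3 counts corresponded to 0.0585 to 0.0819 CPM (counts scaled to a fixed library total), counting error only. IP 1 stood apart from the other IP libraries in measures other than the Sox genes. The summed level of 12 ependymal markers was 244 CPM in IP 1, 3544 in IP 3 and 2842 in IP 4, against 32.5 to 63.8 in Input. Dcdc2a, whose control regions direct the tag, had 43.6, 411 and 175 CPM in IP 1, IP 3 and IP 4, against 27.7 to 73.9 in Input. Foxj1, the master regulator of motile cilia, had 32.2, 345 and 427 CPM in the same IP libraries, against 4.34 to 13.0 in Input. Reads in no gene made up 18.4% of all lines in IP 1, 8.85% in IP 3 and 8.15% in IP 4, against 15.2% to 18.2% in Input. Results are therefore given with and without IP 1. Mural and fibroblast genes moved with the ependymal ones: 11 such markers summed to 101, 1366 and 667 CPM in IP 1, IP 3 and IP 4, against 38.7 to 92.8 in Input. Their part in the results below was not tested.

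**Figure D1:**
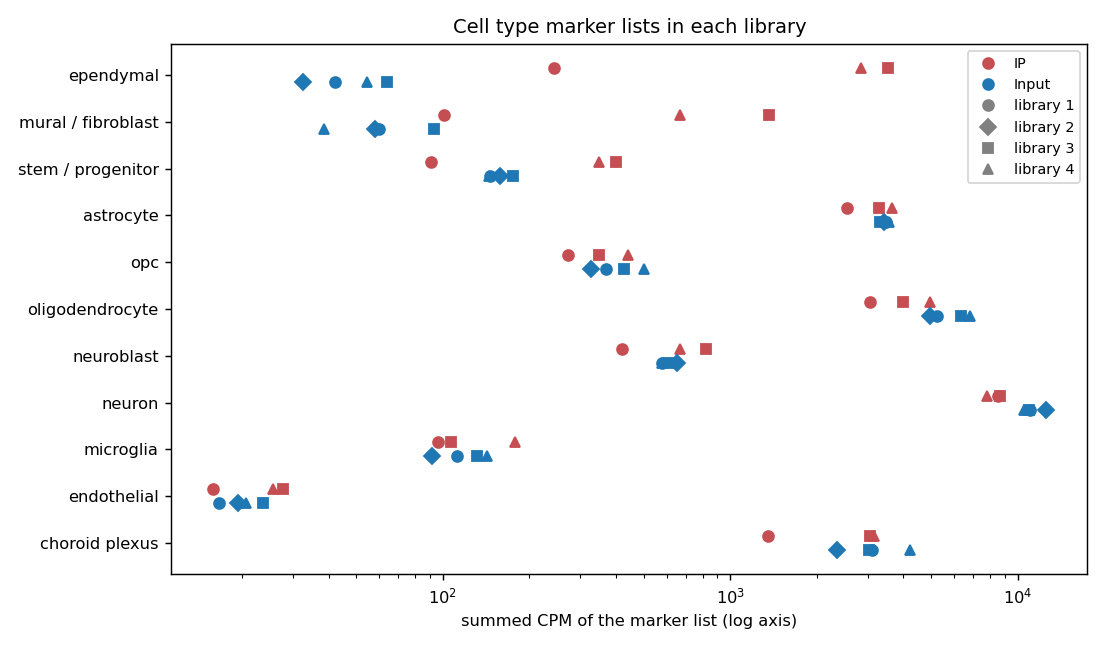
Summed CPM of 11 cell type marker lists (log axis) in each IP and Input library, 1 symbol per library. Ependymal markers lay at 244 to 3544 CPM in IP and 32.5 to 63.8 in Input, and mural and fibroblast markers were above every Input in IP as well. Astrocyte markers lay at 2544 to 3644 CPM in IP and 3309 to 3573 in Input, a sum in which Slc1a2 was the most abundant gene.

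With all 7 libraries, 0 of the 9 tested Sox genes were called in either direction (edgeR's quasi-likelihood test, Benjamini-Hochberg adjusted p under 0.05 over all 17375 tested genes). Over all tested genes 3.64% were called higher and 2.16% lower in IP. At an unadjusted p under 0.05, edgeR had 3 Sox genes higher (Sox1, Sox2 and Sox9) and 1 lower (Sox11), where 13.3% of all tested genes were higher and 9.40% lower at that threshold. DESeq2 called 2 higher (Sox2 and Sox9) and 1 lower (Sox11), against 8.71% higher and 6.34% lower among the 18243 genes to which it gave an adjusted p. Voom called 0, against 0.432% higher and 1.09% lower over all tested genes. Without IP 1, edgeR called 4 higher (Sox1, Sox2, Sox6 and Sox9) and 1 lower (Sox11), where 12.5% of all tested genes were called higher and 9.55% lower. With the replicate number as a block 0 were called, and 0.553% of all tested genes were higher and 0.190% lower; edgeR's unadjusted p was under 0.05 for Sox2 and Sox9 there (both higher), and for 0 lower, beside 8.96% higher and 7.73% lower over all tested genes at that threshold. The median log2 fold of the 9 genes was 0.71, beside 0.06 for all tested genes, and 5 of the 9 folds were positive, beside 9224 of 17375. The median mixes groups that differ in direction, so the members are described one by one. In bulk RNA, fewer cells of a type and less RNA per cell cannot be told apart. The IP adds the share of each cell's ribosomes that carry the tag and the share of each transcript that ribosomes hold.

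**Figure D2:**
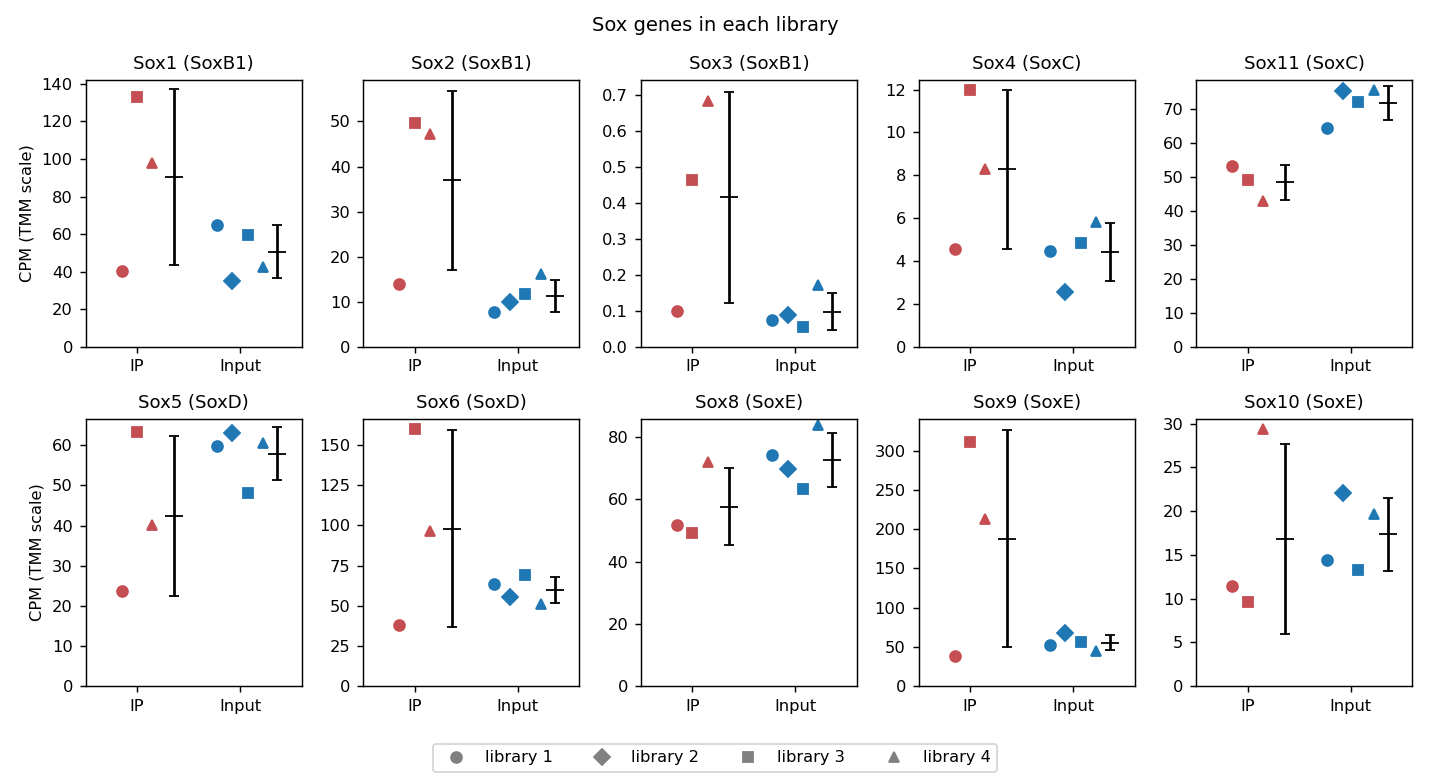
CPM on the TMM scale of the 10 Sox genes in each of 3 IP (left) and 4 Input (right) libraries, with mean and SD beside the points. Sox2 and Sox9 were high in IP 3 and IP 4 and not in IP 1, and Sox11 was below every Input in all 3 IP libraries (42.9 to 53.2 CPM in IP, 64.4 to 75.4 in Input).

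Sox2, the SoxB1 factor best known for keeping neural stem cells undifferentiated (ENSMUSG00000074637.7, chromosome 3, 34650405 to 34652461, plus strand), had 14.0, 49.6 and 47.2 CPM in IP 1, IP 3 and IP 4, against 7.80, 9.90, 11.7 and 16.1 CPM in Inputs 1 to 4. IP 3 and IP 4 were above every Input, and IP 1 lay below Input 4 alone. The log2 fold of 1.70 ± 0.44 (SE) was just short of the threshold (edgeR adjusted p = 0.0502). It passed with total counts as the scaling (1.77, adjusted p = 0.0483), without the low-count filter (1.70, adjusted p = 0.0395), with DESeq2 (1.69, adjusted p = 0.00491) and without IP 1 (2.09, adjusted p = 0.000184), and failed with voom (1.54, adjusted p = 0.143). Against the Input on the same sequencing lane, IP was higher by a log2 ratio of 0.84 in number 1, 2.08 in number 3 and 1.55 in number 4. Sox2 thus had the largest ratio of the 10 Sox genes on the lane of IP 1, where the others lay between -1.33 (Sox5) and 0.29 (Sox3). Input 1 had the least Sox2 of the 4 Inputs, and against their mean log2 CPM IP 1 was higher by only 0.35.

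The Sox2 gene lies within Sox2ot, a long noncoding RNA gene read from the same strand, and in GENCODE M21 the exons of the pair share no base. Sox2ot had 45.7, 75.3 and 53.2 CPM in IP 1, IP 3 and IP 4, against 114, 97.4, 120 and 137 CPM in Inputs 1 to 4. All 3 IP libraries were below every Input, as were 10.4% of all tested genes. Its log2 fold was -1.01 ± 0.23 (SE, edgeR adjusted p = 0.0356), and -0.87 without IP 1 (adjusted p = 0.00743). The call was lost with the replicate number as a block (edgeR adjusted p = 0.114). Sox2 and its surrounding noncoding gene therefore had folds of opposite sign from 1 locus, though Sox2 itself was not called with all libraries. IP is ribosome-bound RNA and Input total RNA, so transcript level and ribosome binding cannot be told apart in these folds. Sox2ot was chosen after its values were seen.

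Sox2 and Sox11, not called by edgeR with all libraries, were the members with the lowest p in each direction. Their promoters are shown because the log2 folds had opposite signs. Each is the 250 bases before the RefSeq start (GRCm38.p6, 5′ to 3′ on the gene's strand), Sox2 at chr3:34649745-34649994 (plus strand) and Sox11 at chr12:27342719-27342968 (minus strand).
Sox2: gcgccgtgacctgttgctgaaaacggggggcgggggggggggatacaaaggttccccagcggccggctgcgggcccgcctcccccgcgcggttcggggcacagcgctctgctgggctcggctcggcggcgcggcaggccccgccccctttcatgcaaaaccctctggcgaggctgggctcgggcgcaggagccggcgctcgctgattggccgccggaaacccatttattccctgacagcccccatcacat
Sox11: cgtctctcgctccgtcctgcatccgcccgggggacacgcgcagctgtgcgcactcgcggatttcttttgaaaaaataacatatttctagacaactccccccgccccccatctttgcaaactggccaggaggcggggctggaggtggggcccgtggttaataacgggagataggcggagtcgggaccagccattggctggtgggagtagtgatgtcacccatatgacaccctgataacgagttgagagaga
A search on both strands for ACAAT, the core of the Sox site, for GTAAACA, a forkhead site, and for GTTGCC, part of an RFX site, found none of these letters in either window, so no base is in capitals. Among all 32851 RefSeq windows of 250 bases, 27.7% held the first, 3.17% the second and 10.4% the third. The bases were 72.0% G or C in Sox2 and 58.0% in Sox11. Windows for 7 of the 10 genes were matched by symbol, which left out Sox3, Sox9 and Sox10.

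Sox1, the SoxB1 member that promotes neural fate (ENSMUSG00000096014.1, chromosome 8, 12395295 to 12400126, plus strand), had 40.5, 133 and 97.8 CPM in IP 1, IP 3 and IP 4, against 64.9, 34.9, 59.7 and 42.7 CPM in Inputs 1 to 4. IP 1 lay among the Inputs, and the other IP libraries were above all of them. The log2 fold was 0.84 ± 0.37 (SE) and missed the threshold (edgeR adjusted p = 0.215), and without IP 1 it was 1.19 ± 0.24 (SE, edgeR adjusted p = 0.00276). Sox3, the X-linked SoxB1 member (chromosome X, 60891366 to 60893430, minus strand), had 5, 21 and 35 counts in IP 1, IP 3 and IP 4, against 3, 4, 2 and 7 counts in Inputs 1 to 4. It was near the detection limit in Input and in IP 1, and was not tested; without the filter its log2 fold was 2.06 (edgeR adjusted p = 0.502).

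Sox9 (ENSMUSG00000000567.5, chromosome 11, 112782224 to 112787760, plus strand) had the widest spread between the IP libraries (CV 73.6%). It had 38.5, 311 and 213 CPM in IP 1, IP 3 and IP 4, against 52.9, 68.1, 55.7 and 44.6 CPM in Inputs 1 to 4. IP 3 and IP 4 were far above every Input, and IP 1 was below every Input. The log2 fold of 1.76 ± 0.54 (SE) did not pass (edgeR adjusted p = 0.0927). Without IP 1 it was 2.24 ± 0.20 (SE, edgeR adjusted p = 1.49e-06), with DESeq2 on all libraries 1.75 (adjusted p = 0.0129) and with voom 1.31 (adjusted p = 0.329). Sox9 is also an astrocyte gene: of 13 astrocyte markers 1 was called higher (Gfap, log2 fold 1.10, edgeR adjusted p = 0.0358, and 0.165 with the replicate block) and 0 lower (median log2 fold 0.58). Over all tested genes the main fit called 3.64% higher and 2.16% lower. Without IP 1, 6 astrocyte markers were called higher and 1 lower, beside 12.5% and 9.55% of all tested genes. The 13 markers summed to 2544, 3294 and 3644 CPM in IP 1, IP 3 and IP 4, against 3309 to 3573 in Input. Slc1a2, the most abundant of them, weighed heavily in that sum. It was below every Input in all 3 IP libraries, as were 10.4% of all tested genes. It had 1040, 1466 and 1808 CPM in IP 1, IP 3 and IP 4, against 2099 to 2322 in Input. Of the 13 folds 9 were positive, so the sum does not stand for most of the list. The part of astrocytes in the Sox9 level was not tested.

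The other SoxE genes did not follow Sox9. Sox8, a SoxE factor of glia whose loss is known to be largely covered by its relatives (ENSMUSG00000024176.10, chromosome 17, 25565892 to 25570686, minus strand), had 51.7, 49.2 and 71.9 CPM in IP 1, IP 3 and IP 4, against 74.1, 69.5, 63.3 and 83.8 CPM in Inputs 1 to 4. IP 4 was inside the Input range and the other IP libraries were below it (log2 fold -0.34 ± 0.22 SE, edgeR adjusted p = 0.413). Of its exon bases 329 overlap 2810468N07Rik on the other strand, so its count is uncertain. Sox10, the factor of the oligodendrocyte lineage that activates myelin genes (ENSMUSG00000033006.10, chromosome 15, 79154908 to 79165240, minus strand), had 11.4, 9.67 and 29.4 CPM in IP 1, IP 3 and IP 4, against 14.4, 22.0, 13.3 and 19.7 CPM in Inputs 1 to 4. IP 4 was above every Input while IP 1 and IP 3 were below every Input. The log2 fold of -0.04 ± 0.42 (SE, edgeR adjusted p = 0.965) had no settled sign: it was 0.17 without IP 1 and 0.23 without IP 3. Of 12 markers of mature oligodendrocytes 0 were called higher and 2 lower (median log2 fold -0.62), beside 3.64% and 2.16% of all tested genes. Without IP 1 the counts were 0 and 6, beside 12.5% and 9.55%, and with DESeq2 0 and 6, beside 8.71% and 6.34%. At unadjusted p under 0.05 edgeR gave 1 and 6, beside 13.3% and 9.40%. The 2 called by edgeR with all libraries were the myelin genes Mbp (log2 fold -0.74, edgeR adjusted p = 0.0468, and 0.167 with the replicate block) and Mobp (-1.17, adjusted p = 0.0406, and 0.107 with the block); Gfap and Mobp were named after their values were seen. The oligodendrocyte list had sums of 3053, 3996 and 4961 CPM in IP 1, IP 3 and IP 4, against 4936 to 6837 in Input. Of 11 markers of their precursors 0 were called in either direction by edgeR and voom. At unadjusted p under 0.05 edgeR gave 1 higher and 2 lower, DESeq2 gave 1 and 1, and edgeR without IP 1 gave 2 and 1. The shares over all tested genes are those given above for the same tests. These markers summed to 273 to 442 CPM in IP and 327 to 500.5 in Input.

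Sox11, a SoxC factor of newborn neurons (ENSMUSG00000063632.6, chromosome 12, 27334264 to 27342574, minus strand), had 53.2, 48.9 and 42.9 CPM in IP 1, IP 3 and IP 4, against 64.4, 75.1, 72.0 and 75.4 CPM in Inputs 1 to 4. It was the only member with no overlap between the groups, all 3 IP libraries being below every Input, as in 10.4% of all tested genes. The difference was small, a log2 fold of -0.57 ± 0.20 (SE), and did not pass (edgeR adjusted p = 0.121). It passed without IP 1 (-0.65, edgeR adjusted p = 0.0317) and with DESeq2 (-0.57, adjusted p = 0.0344). Of 12 neuroblast markers 1 was called higher (Cd24a, log2 fold 4.24, edgeR adjusted p = 0.0169, also an ependymal surface protein) and 1 lower (Dcx, log2 fold -0.77, edgeR adjusted p = 0.0423), with a median of -0.08; both calls were lost with the replicate number as a block (adjusted p = 0.106 for Cd24a and 0.176 for Dcx), and both genes were chosen after their values were seen. Over all tested genes the main fit called 3.64% higher and 2.16% lower. DESeq2 called 1 higher and 3 lower in this list, beside 8.71% and 6.34%, and edgeR without IP 1 called 1 and 1, beside 12.5% and 9.55%. Markers of mature neurons summed to 8539, 8634 and 7783 CPM in IP 1, IP 3 and IP 4, against 10474 to 12506 in Input. Snap25 weighed heavily in that sum, with 6026, 6178 and 4683 CPM in IP 1, IP 3 and IP 4, against 6993 to 9241 in Input. Of these 12 markers the main fit called 0 in either direction, and edgeR without IP 1 called 0 higher and 2 lower, beside the same shares. The part of these markers in the Sox11 difference was not tested.

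Sox4, the other SoxC gene (ENSMUSG00000076431.4, chromosome 13, 28948919 to 28953713, minus strand), lay on the other side. It had 4.57, 11.98 and 8.29 CPM in IP 1, IP 3 and IP 4, against 4.49, 2.55, 4.83 and 5.82 CPM in Inputs 1 to 4. IP 1 lay among the Inputs and the other IP libraries above them. The log2 fold was 0.90 ± 0.50 (SE, edgeR adjusted p = 0.318), and 1.19 without IP 1 (edgeR adjusted p = 0.100). Of its 4795 exon bases 2616 overlap the model Gm26735 on the other strand, so the count is uncertain. Reads that fell on more than 1 gene and were left out of the counts made up 1.91%, 2.01% and 1.51% of all lines in IP 1, IP 3 and IP 4, against 9.33% to 12.9% in Input. Their part in the result was not tested for the levels of Sox4, Sox5, Sox8 and Sox1, the members whose exons overlap another gene model (in Sox1, 86 bases with Gm25239 on the same strand).

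Sox6, a SoxD factor without an activation domain of its own (ENSMUSG00000051910.13, chromosome 7, 115470872 to 116038796, minus strand), had 37.9, 160 and 96.2 CPM in IP 1, IP 3 and IP 4, against 63.8, 55.7, 69.4 and 50.8 CPM in Inputs 1 to 4. As with Sox9, IP 1 was below every Input and the other IP libraries were above. The log2 fold of 0.71 ± 0.39 (SE) did not pass (edgeR adjusted p = 0.313), and without IP 1 it was 1.10 ± 0.22 (SE, edgeR adjusted p = 0.00212). Sox5, its close relative (ENSMUSG00000041540.16, chromosome 6, 143828425 to 144781977, minus strand), had 23.8, 63.3 and 40.2 CPM in IP 1, IP 3 and IP 4, against 59.9, 63.0, 48.2 and 60.5 CPM in Inputs 1 to 4. IP 1 and IP 4 were below every Input and IP 3 just above the highest. The log2 fold was -0.45 ± 0.31 (SE, edgeR adjusted p = 0.444), and -0.16 without IP 1 (edgeR adjusted p = 0.672). Sox5 shares 1330 exon bases with Sox5os1 on the other strand and is uncertain.

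**Figure D3:**
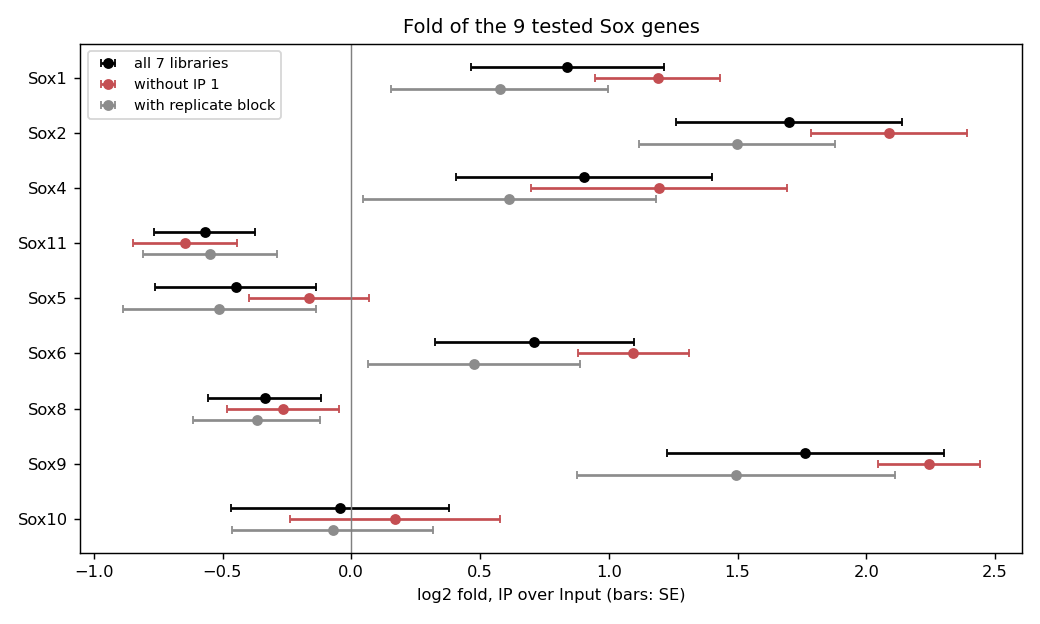
Log2 fold of IP over Input (bars: SE) for the 9 tested Sox genes from edgeR with all 7 libraries, without IP 1 and with the replicate number as a block. Without IP 1 Sox2 and Sox9 reached 2.09 and 2.24, Sox11 stayed below 0 in all 3 fits, and Sox10 lay around 0.

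Ratios of Sox genes inside a library do not depend on how libraries are scaled. With 3 libraries against 4, the smallest p that the two-sided exact permutation test can give is 0.0571, so no ratio could pass 0.05. The log2 ratio of Sox5 to Sox6 was -0.67, -1.34 and -1.26 in IP 1, IP 3 and IP 4, against -0.09, 0.18, -0.53 and 0.25 in Inputs 1 to 4. All 3 IP libraries, IP 1 included, were below every Input (difference -1.04, exact permutation p = 0.0571, 0.0762 adjusted over the 4 ratios). The log2 ratio of Sox4 to Sox11 was -3.54, -2.03 and -2.37 in IP 1, IP 3 and IP 4, against -3.84, -4.87, -3.89 and -3.69 in Inputs 1 to 4, again with no overlap (difference 1.43, exact permutation p = 0.0571, 0.0762 adjusted). Sox5 and Sox4 overlap genes on the other strand and the share of reads on more than 1 gene differed between IP and Input, so these 2 ratios are uncertain. The log2 ratio of Sox2 to Sox10 was 0.29, 2.36 and 0.69 in IP 1, IP 3 and IP 4, against -0.88, -1.15, -0.19 and -0.29 in Inputs 1 to 4. Here every IP had more Sox2 than Sox10 counts and every Input fewer (difference 1.74, exact permutation p = 0.0571, 0.0762 adjusted). For Sox9 to Sox10 the groups overlapped, with 1.75, 5.01 and 2.86 in IP 1, IP 3 and IP 4, against 1.88, 1.63, 2.07 and 1.18 in Inputs 1 to 4 (difference 1.52, exact permutation p = 0.171, also 0.171 adjusted).

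Levels were set beside each other as CPM per kilobase of exon (union of the GENCODE M21 basic exons). In IP the order of mean levels was Sox9 (45.4 ± 33.4, SD, n = 3), Sox1 (18.7 ± 9.66), Sox8 (18.5 ± 3.99), Sox2 (18.0 ± 9.66), Sox6 (10.5 ± 6.53), Sox10 (6.05 ± 3.92), Sox11 (5.81 ± 0.62), Sox5 (5.71 ± 2.67), Sox4 (1.73 ± 0.77) and Sox3 (0.20 ± 0.14). In IP, only Sox5 over Sox4 and Sox4 over Sox3 were neighbours whose means differed by more than the larger SD. In Input the order was Sox8 (23.3 ± 2.77, SD, n = 4), Sox9 (13.4 ± 2.35), Sox1 (10.5 ± 2.92), Sox11 (8.63 ± 0.61), Sox5 (7.80 ± 0.89), Sox6 (6.40 ± 0.89), Sox10 (6.24 ± 1.51), Sox2 (5.53 ± 1.72), Sox4 (0.92 ± 0.29) and Sox3 (0.05 ± 0.03). Among neighbours in Input, Sox8 over Sox9, Sox5 over Sox6, Sox2 over Sox4 and Sox4 over Sox3 differed by more than the larger SD, and the other neighbours did not. Sox8 had the highest level per kilobase in all 4 Inputs and in IP 1, and Sox9 in IP 3 and IP 4. Sox2 ranked 4, 3 and 3 of the 10 in IP 1, IP 3 and IP 4, against 8, 8, 7 and 6 in Inputs 1 to 4.

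**Figure D4:**
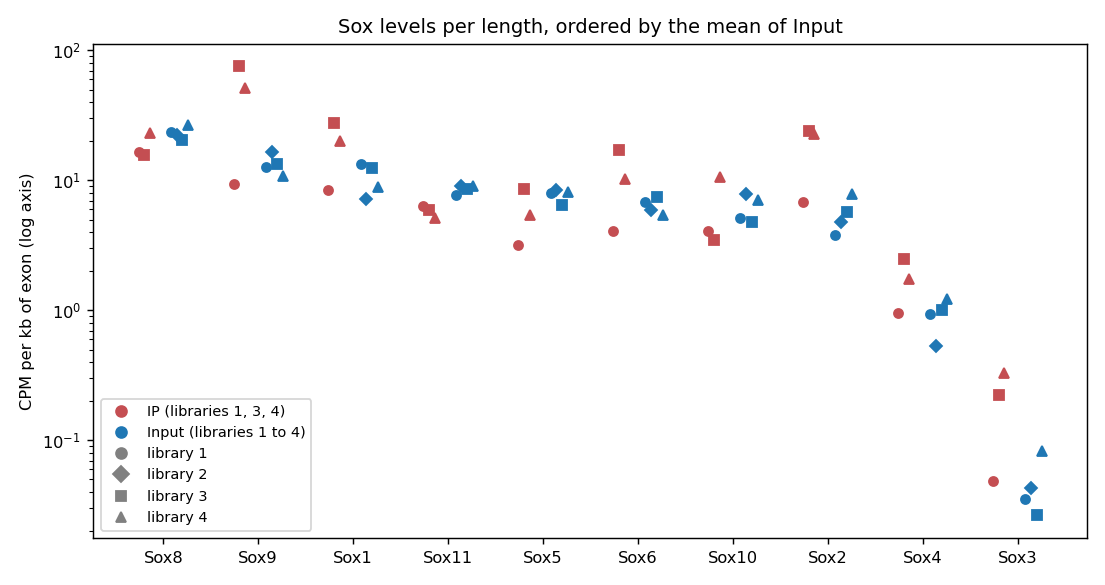
CPM per kilobase of exon (log axis) of the 10 Sox genes in each IP and Input library, ordered by the mean of Input. Sox8 led in Input (23.3) and Sox9 in IP (45.4), while Sox4 and Sox3 were lowest in both groups.

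The rest of the family was mixed too. Of 9 further Sox genes 8 were tested (Sox15 was not), and 0 were called by edgeR or voom (median log2 fold 0.63). At unadjusted p under 0.05 edgeR had 2 higher and 0 lower, beside 13.3% and 9.40% of all tested genes. DESeq2 had 2 higher, beside 8.71%. Sox12, the remaining SoxC gene, had 30.8, 34.7 and 40.8 CPM in IP 1, IP 3 and IP 4, against 21.9, 24.1, 23.4 and 21.9 CPM in Inputs 1 to 4. Every IP was above every Input, as in 9.55% of all tested genes (log2 fold 0.64 ± 0.23 SE, edgeR adjusted p = 0.138, and 0.0484 without IP 1). The SoxC genes thus lay on both sides, Sox11 below every Input and Sox12 above, though neither was called with all libraries. Sox21, a SoxB2 factor, had 8.33, 36.1 and 13.8 CPM in IP 1, IP 3 and IP 4, against 5.47, 27.1, 6.31 and 11.6 CPM in Inputs 1 to 4, with overlapping groups (log2 fold 0.62, edgeR adjusted p = 0.632). Sox13, the remaining SoxD gene, had 7.47, 27.5 and 23.1 CPM in IP 1, IP 3 and IP 4, against 7.43, 8.47, 2.87 and 7.93 CPM in Inputs 1 to 4 (log2 fold 1.53 ± 0.51 SE, edgeR adjusted p = 0.111, and 0.00406 without IP 1). IP 1 lay among the Inputs and the other IP libraries were above all of them. Sox13 was chosen after its values were seen.

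Of 16 transcription and chromatin factors known to work with Sox proteins in neural cells, 0 were called higher and 1 lower. Over all tested genes 3.64% were called higher and 2.16% lower, and the median log2 fold of the list was 0.27. At an unadjusted p under 0.05 edgeR gave 2 higher and 2 lower, beside 13.3% and 9.40% of all tested genes. DESeq2 gave 1 higher and 2 lower, beside 8.71% and 6.34%, and voom 0. The lower gene was Tcf7l2, an HMG-box factor of Wnt signalling that also acts in oligodendrocytes, with 132, 185 and 216 CPM in IP 1, IP 3 and IP 4, against 330, 417, 295 and 342 CPM in Inputs 1 to 4. All IP libraries were below every Input, as in 10.4% of all tested genes (log2 fold -0.96 ± 0.22 SE, edgeR adjusted p = 0.0355). The call was lost with the replicate number as a block (edgeR adjusted p = 0.157). Without IP 1 this list had 4 members higher and 1 lower, beside 12.5% higher and 9.55% lower over all tested genes. The 4, named after their values were seen, were Pou2f1 (log2 fold 1.41, edgeR adjusted p = 4.85e-05), Nfia (0.96, adjusted p = 0.000837), Nfix (0.92, adjusted p = 0.00243) and the chromatin remodeller Chd7 (1.45, adjusted p = 0.00575). Of the Pou2f1 exon bases 3007 overlap Cd247 on the other strand, so its count is uncertain, as with Sox4. Nfia is a glial factor that works with Sox9 in the embryonic spinal cord. It had 118, 531 and 339 CPM in IP 1, IP 3 and IP 4, against 215 to 232 in Input. IP 3 was highest, then IP 4, and IP 1 was below every Input, as also in Sox6 and Sox9. The order of the Inputs was not that of Sox9.

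The tested genes whose levels ran closest to each Sox gene over the 7 libraries were sought among 11190 named genes with a mean of at least 5 CPM. The measure was the Pearson correlation of log2 CPM, which over so many genes finds high values for any member. It is a description of these libraries, which differ in depth and group. For SoxB1 they were Rhbdd1 (0.995) and Ehbp1l1 (0.993) for Sox1, the basement membrane gene Nid1 (0.997) and Abhd14a (0.996) for Sox2, and Prom1 (0.997) and Ucp2 (0.986) for Sox3. The values of Sox3 rest on IP 3 and IP 4, since it had 2 to 7 counts in the other 5 libraries. Prom1 encodes prominin, a surface protein of neural stem and ependymal cells. For SoxE they were Fam107b (0.995) and Hist2h2be (0.992) for Sox9, the retinoic acid receptor gene Rarb (0.990) and Cacng4 (0.984) for Sox8, and Slitrk3 (0.960) and Zfp143 (0.953) for Sox10. Cacng4 was among the markers of oligodendrocyte precursors. For SoxC they were Tapbp (0.998) and Zfand4 (0.997) for Sox4, and Ppm1b (0.993) and Lyrm9 (0.990) for Sox11. For SoxD they were Commd8 (0.988) and Cox11 (0.982) for Sox5, and Dpy30 (0.986) and Isca2 (0.982) for Sox6. Among the 9 tested Sox genes, the highest values were those of Sox6 with Sox9 (0.934) and Sox1 with Sox6 (0.928). The lowest value was that of Sox2 with Sox11 (-0.79).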

How the data were processed

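Polysomes carrying EGFP were immunopurified from the dissected tissue, per the labels' protocols, and 3 IP and 4 Input libraries were used. The authors deposited raw counts for each gene symbol in a separate table for every library, without normalisation. STAR 2.0.0e, HTSeq and the build mm10 are named in the submitters' processing notes; settings, annotation and strand use are not stated in the labels. Lines for reads not counted to any gene made up 40.1% to 52.1% of all lines and stayed out of library sizes and tests. They cover reads in no gene, reads that fell on several genes and reads with several alignments.

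Genes were kept with filterByExpr (minimum count 10, minimum total 15) of edgeR 4.0.16 in R 4.3.3, which left 17375. IP was compared with Input by edgeR's quasi-likelihood test (robust, TMM scaling, group as the only term), with Benjamini-Hochberg adjustment over all tested genes. SE was obtained as the fold over the root of the F statistic. Log2 ratios of single libraries used a prior count of 2, and ratios between genes an added count of 0.5. Alternatives used DESeq2 1.42.0, voom of limma 3.58.1, other scalings, no filter, a replicate block and single libraries left out. Intervals of counts cover counting error only.

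The main fit did not pair libraries. In the replicate block and the same-lane ratios alone, libraries of the same number were treated as pairs. The labels put the IP and Input of numbers 1, 3 and 4 on lanes 4, 2 and 3, and tie no number to an animal. Across genes, libraries of the same number deviated from their group means with correlations of 0.032, 0.043 and 0.026, each above those of that IP with the other Inputs.

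The 10 genes and all lists were chosen with earlier results of these data known. Named genes were the members, Dcdc2a and Foxj1, and the called genes of the further Sox and partner lists (or the 2 most abundant). They also took in the 2 most abundant of each cell type list and the 2 genes most like each member. Most cell type genes are given only as sums of their list. Gene models are from GENCODE M21 (1-based, the assembly of mm10), and promoters from RefSeq.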

Additional observations from a re-analysis of the deposited data

Results flagged for a closer look

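Sox17, an endothelial Sox factor, had 2.66 CPM in Input 2, against 0.123 to 0.319 CPM in the other Inputs, a gap large for a group of 4. Sox30, a factor of male germ cells, had 0.516 CPM in Input 4, against 0 to 0.0224 CPM in the other Inputs; its IP libraries had 0, 71 and 170 counts in IP 1, IP 3 and IP 4, against 0, 1, 0 and 21 counts in Inputs 1 to 4. These were 2 of 35 genes checked in Input, and chance alone gives about 1 in 20.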

How the results depend on the processing

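Genes called higher over the whole table (633) numbered 1589 with DESeq2, 75 with voom, 96 with the replicate block, and 4 to 2259 with single libraries left out (2259, 343 and 10 without IP 1, IP 3 and IP 4, and 21, 12, 4 and 4 without Inputs 1 to 4). Genes called lower (376) numbered 1156, 189, 33 and 16 to 1724 (1724, 357 and 19 without IP 1, IP 3 and IP 4, and 30, 24, 16 and 19 without Inputs 1 to 4). The cause was not tested. Sox genes called higher (0) numbered 1 with total counts, 1 with no filter, 2 with DESeq2 and 0 to 4 with single libraries left out; those called lower (0) numbered 1 with DESeq2 and 0 to 1 with single libraries left out. In each case without IP 1 gave the 4 and the 1, and every other single omission gave 0. The replicate block called 0 Sox genes, and changed no other call of the report than those given there.

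Calls gained were Sox2 with total counts (log2 fold 1.77), no filter (1.70) and DESeq2 (1.69), Sox9 with DESeq2 (1.75) and Sox11 with DESeq2 (-0.57). With single libraries left out the folds ran from 0.45 to 1.19 in Sox1, 1.43 to 2.09 in Sox2, 0.16 to 1.10 in Sox6, 1.18 to 2.24 in Sox9, -0.65 to -0.49 in Sox11 and -0.72 to 0.23 in Sox10. Sox10 changed sign without IP 1 (0.17), IP 3 (0.23), Input 2 (0.09) and Input 4 (0.02), and was called in none. The 4 ratios kept their sign under all 9 alternatives each, the Sox9 to Sox10 difference running from 0.62 to 2.25. Another scaling moved the median fold of all genes by at most 0.04. Sox3, not tested in the main fit, has a value only without the filter. At these depths Sox3 and Sox30 are close to the limit of 3 counts in several libraries.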

Other observations

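Sox14, which marks particular GABAergic neurons of the thalamus and midbrain, was alike between libraries of the same number. It had 128, 2 and 0 counts in IP 1, IP 3 and IP 4, against 44, 18, 2 and 0 counts in Inputs 1 to 4. Both libraries numbered 1 were high, and both numbered 3 and both numbered 4 were near 0. Sox18, a vascular factor, had 0.160, 0.022 and 0.761 CPM in IP 1, IP 3 and IP 4, against 1.37, 1.59, 1.42 and 0.933 CPM in Inputs 1 to 4. All its IP libraries were below every Input, as in 10.4% of all tested genes (log2 fold -2.07 ± 1.24 SE, edgeR adjusted p = 0.366). Its counts were 8, 1 and 39 in IP 1, IP 3 and IP 4, so IP 3 was below the limit of 3 counts. Endothelial markers summed to 15.9 to 27.8 CPM in IP and 16.6 to 23.6 CPM in Input. These genes were chosen after their values were seen.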
